A study of Rattus norvegicus with 8 samples.

Results

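Vegfa, the main secreted growth factor for blood vessels, and the endothelial receptor genes Flt1, Kdr and Tek were followed in the hearts of rats kept in chronic hypoxia and of normoxic controls. The 4 genes were chosen by Ensembl ID (ENSRNOG00000019598, ENSRNOG00000000940, ENSRNOG00000046829 and ENSRNOG00000008587) out of 21549 IDs listed, and all 4 passed the filter on low counts. RNA was sequenced from heart tissue of Sprague Dawley rats aged 3 months, an outbred laboratory strain, with 4 animals in normoxia, labelled Control, and 4 in chronic hypoxia, in which the animals breathe air poor in oxygen for a long time. Each library was taken as 1 animal, since the labels' protocol counts 4 rats in each group. The groups share strain, age and tissue, and the labels name no genotype or drug. How low the oxygen was, how long exposure lasted, which sex was used and which chamber was sampled are not stated in the sources used here.

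Vascular endothelial growth factor A, the product of Vegfa, is secreted by cardiomyocytes and other cells and acts on neighbouring endothelial cells. Its transcription is a textbook target of the hypoxia-inducible factors (HIF), which accumulate when oxygen is low. Kdr encodes the receptor tyrosine kinase that carries most of the mitogenic and permeability signal of this ligand. Flt1 encodes a related receptor that binds the ligand tightly, signals weakly and also exists as a soluble form that acts as a decoy. Tek encodes the endothelial receptor for angiopoietins, a separate ligand family that governs vessel stability. In the adult heart the receptors are expressed mainly by the endothelium.

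The start regions of 3 of the 4 genes were held in the RefSeq promoter table of build GRCr8, and they are shown as description. A link between these bases and the changes in level was not tested. The 250 bases before the start are printed 5′ to 3′, all on the plus strand, with capitals for the HIF core motif (ACGTG or GCGTG), the GC box (GGGCGG), a cAMP response element (TGACGTCA) and TATAAA, each searched on both strands. The build differs from rn6, the build of the counts, so these positions serve only to place the printed bases. Vegfa lies at chr9:22452604-22452853, Flt1 at chr12:12333180-12333429 and Kdr at chr14:32571813-32572062.
Vegfa: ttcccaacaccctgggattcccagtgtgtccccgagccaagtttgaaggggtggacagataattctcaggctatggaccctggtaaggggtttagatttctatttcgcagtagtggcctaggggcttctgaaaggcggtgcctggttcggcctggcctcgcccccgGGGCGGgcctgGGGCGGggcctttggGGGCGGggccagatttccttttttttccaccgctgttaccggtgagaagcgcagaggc
Flt1: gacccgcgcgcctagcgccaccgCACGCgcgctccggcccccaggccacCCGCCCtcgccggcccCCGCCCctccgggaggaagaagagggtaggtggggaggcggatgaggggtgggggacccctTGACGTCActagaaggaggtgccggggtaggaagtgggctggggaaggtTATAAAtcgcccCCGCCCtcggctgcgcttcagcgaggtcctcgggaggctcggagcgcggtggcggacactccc
Kdr: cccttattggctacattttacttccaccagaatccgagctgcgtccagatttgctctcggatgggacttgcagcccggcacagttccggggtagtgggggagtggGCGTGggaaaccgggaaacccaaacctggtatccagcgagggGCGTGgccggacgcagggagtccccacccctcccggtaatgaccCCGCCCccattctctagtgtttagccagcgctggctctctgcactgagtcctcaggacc
The Vegfa window held 3 GC boxes, between 84 and 53 bases before the start, and no HIF core, and a window before a second Vegfa start in the table held none of these motifs. The Flt1 window held 1 HIF core (GCGTG, on the minus strand), 3 GC boxes, the cAMP response element 124 to 117 bases before the start and a TATAAA. The Kdr window held 2 HIF cores, both GCGTG on the plus strand, and 1 GC box. Of 33469 windows of the same length in the table, 36.7% held a HIF core, 30.5% a GC box, 1.59% the full cAMP response element and 12.9% TATAAA. These are matches of letters and describe no binding. Only these 250 bases were searched, so a motif absent here may still lie further from the start. Tek was not in the table.

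Libraries held 26229304 to 32160710 counts, and 14214 genes were tested. Hypoxia libraries differed from normoxia ones in several whole-library measures. Averaged over counts, the gene model was 2596 to 2628 bp long in normoxia and 2220 to 2375 bp in hypoxia. The 10 most abundant genes took 33.5 to 35.5% of counts in normoxia and 35.2 to 42.2% in hypoxia. On this measure the groups overlapped, with hypoxia library 1 below normoxia library 4. The first principal component of log2 CPM (49.0% of variance) separated the groups. The next component (20.9%) separated hypoxia libraries 1 and 2 (scores of −37.9 and −29.8) from hypoxia libraries 3 and 4 (29.3 and 27.9), and normoxic hearts scored between −1.01 and 8.10. Levels are in CPM (counts relative to the library size after scaling by TMM, the trimmed mean of M values) unless FPKM, which also divides by gene-model length, is named.

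Vegfa, the ligand, was the most abundant of the 4 genes and was lower in every hypoxic heart. It stood at 527, 498, 473 and 503 CPM in normoxia libraries 1 to 4 and at 358, 321, 430 and 428 CPM in hypoxia libraries 1 to 4. The groups did not overlap, and hypoxia libraries 1 and 2 lay further below normoxia than 3 and 4. The mean fell from 500.2 ± 22.3 to 384 ± 53.8 CPM (SD, n = 4 each). This was 0.768-fold, or −0.38 on the log2 scale (SE 0.11), and passed (edgeR quasi-likelihood adjusted p = 0.0231). Leaving out normoxia library 1, 2 or 4 moved the edgeR adjusted p to 0.0628, 0.0522 or 0.0588, with log2 fold changes of −0.36, −0.38 and −0.38. Without hypoxia libraries 1 and 2 the log2 fold change of Vegfa was −0.23 and without libraries 3 and 4 it was −0.57. These pairs were parted by a component of the same data, so the values are no separate test. As every hypoxic heart was below normoxia, their sign was fixed beforehand. By FPKM, Vegfa ranked between 334 and 371 among the tested genes in normoxia and between 416 and 599 in hypoxia. In bulk tissue, fewer cells that express a gene and less RNA per cell cannot be told apart.

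Kdr, the main signalling receptor for the ligand, was also lower in every hypoxic heart. Its levels were 141, 159, 135 and 152 CPM in normoxia libraries 1 to 4 and 113, 92.7, 99.7 and 120 CPM in hypoxia libraries 1 to 4. The lowest normoxic heart lay above the highest hypoxic one, and the hypoxic hearts did not fall into the pairs seen for Vegfa. Kdr fell from 147 ± 10.9 to 106 ± 12.3 CPM (SD, n = 4 each). This was 0.722-fold, or −0.47 on the log2 scale (SE 0.10), and passed (edgeR adjusted p = 0.00669). With any 1 library left out the log2 fold change of Kdr was −0.54 to −0.42 and stayed past the threshold (edgeR adjusted p = 0.00585 to 0.0248). With the trend of each library with gene-model length subtracted, Kdr was at −0.25 and Vegfa at −0.29, and neither passed (edgeR adjusted p = 0.118 and 0.0557). Kdr and Vegfa were also lower when libraries were scaled by their totals alone, with log2 fold changes of −0.64 and −0.55, a scaling that moved the median of all genes from 0.01 to −0.17.

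Flt1, the tightly binding receptor, split the hypoxic hearts. It measured 129, 111, 116 and 118 CPM in normoxia libraries 1 to 4, against 138, 194, 105 and 106 CPM in hypoxia libraries 1 to 4. In CPM, hypoxia libraries 1 and 2 lay above every normoxic heart and libraries 3 and 4 below every one. By FPKM, which is not scaled by TMM, hypoxia library 1 (19.4) lay below normoxia library 1 (19.8). On that scale only hypoxia library 2 (25.0) exceeded every normoxic heart. The group means of 118 ± 7.48 and 136 ± 41.9 CPM (SD, n = 4 each) gave a log2 fold change of 0.20 (SE 0.18, 95% interval −0.20 to 0.60) that did not pass (edgeR adjusted p = 0.428). Its sign rested on hypoxia library 2, without which the log2 fold change of Flt1 was −0.03 (edgeR adjusted p = 0.841). It also rested on the scaling, as the log2 fold change was −0.02 on log2(FPKM + 1) (limma adjusted p = 0.934). In edgeR, the log2 fold change of Flt1 was 0.48 without hypoxia libraries 3 and 4, and −0.18 without libraries 1 and 2. These pairs were parted by a principal component of the same data, so both values restate the split and are no separate test. The SD of log2 CPM of Flt1 was 0.09 in normoxia and 0.42 in hypoxia, where the median tested gene had 0.13 and 0.23, and 78.2% of tested genes ranked at or below Flt1 in the hypoxic spread.

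Tek, the angiopoietin receptor, followed the same order of hypoxic hearts in a narrower range. It was at 83.9, 87.5, 95.2 and 83.3 CPM in normoxia libraries 1 to 4 and at 106, 117, 86.5 and 89.8 CPM in hypoxia libraries 1 to 4. In CPM, hypoxia libraries 1 and 2 exceeded all normoxic hearts, while 3 and 4 lay within the normoxic range. By FPKM, libraries 1 and 2 again exceeded all normoxic hearts, but library 4 (17.6) lay below the lowest normoxic one (18.8). The means of 87.5 ± 5.50 and 99.7 ± 14.2 CPM (SD, n = 4 each) gave a log2 fold change of 0.19 (SE 0.11, 95% interval −0.05 to 0.43) that did not pass (edgeR adjusted p = 0.198). Without hypoxia library 2 the log2 fold change of Tek was 0.10 (edgeR adjusted p = 0.468). Without hypoxia libraries 3 and 4 it was 0.34 and without libraries 1 and 2 it was 0.00, again a restatement of that split. Scaling by library totals alone placed Tek at 0.01 and Flt1 at 0.02 on the log2 scale.

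**Figure D1:**
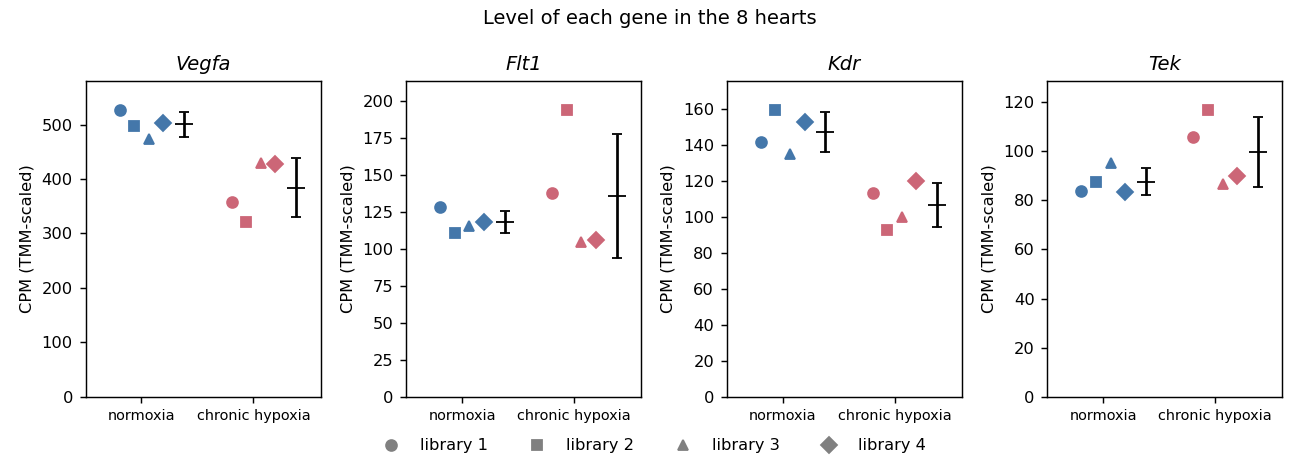
CPM of Vegfa, Flt1, Kdr and Tek in each library (y axis, from 0), with marker shape for the library number, blue for normoxia and red for chronic hypoxia, and a black bar for the mean ± SD of 4 libraries. All 4 hypoxic hearts lie below all 4 normoxic ones for Vegfa and Kdr, whereas hypoxia libraries 1 and 2 lie above normoxia for Flt1 and Tek.

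Of the 4 genes, 2 fell, 0 rose and 2 did not pass. Among all tested genes 33.0% were called, 15.3% as lower and 17.7% as higher, and the median log2 fold change was 0.01, against −0.10 over the 4 genes. That split turned with the scaling, to 3870 lower and 1426 higher with library totals alone and 3704 lower and 1195 higher on log2(FPKM + 1), against 2177 and 2516 here. Groups without overlap, as seen for Vegfa and Kdr, occurred in 34.3% of tested genes, 17.1% with hypoxia lower and 17.3% with hypoxia higher. With 4 genes, a count of 2 is not far from that background. All 4 genes lay in the most abundant of 10 equal bins of tested genes (mean of 80.3 CPM and above), in which 19.1% were called lower and 29.5% higher.

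By FPKM the order of Kdr and Tek differed between the groups, while the place of Flt1 varied between hypoxic hearts. Compared per length, normoxia libraries 1 to 4 had 23.9, 27.2, 22.8 and 24.7 FPKM of Kdr, 19.7, 20.8, 22.3 and 18.8 FPKM of Tek and 19.8, 17.2, 17.7 and 17.5 FPKM of Flt1. Kdr was thus the highest receptor in 4 of 4 normoxic hearts, narrowly in library 3. Hypoxia libraries 1 to 4 had 17.5, 13.1, 15.7 and 16.9 FPKM of Kdr, 22.7, 23.0, 18.9 and 17.6 FPKM of Tek and 19.4, 25.0, 15.0 and 13.6 FPKM of Flt1. Tek exceeded Kdr in 4 of 4 hypoxic hearts, narrowly in library 4, while Flt1 exceeded Kdr in libraries 1 and 2 alone. Vegfa stood far above the receptors in every library, at 142 to 159 FPKM in normoxia and 81.1 to 121 FPKM in hypoxia. Flt1 and Tek overlapped in both groups. Their means were 18.0 ± 1.17 and 20.4 ± 1.51 FPKM under normoxia, and 18.2 ± 5.14 and 20.6 ± 2.71 FPKM under hypoxia (SD over 4 libraries).

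**Figure D2:**
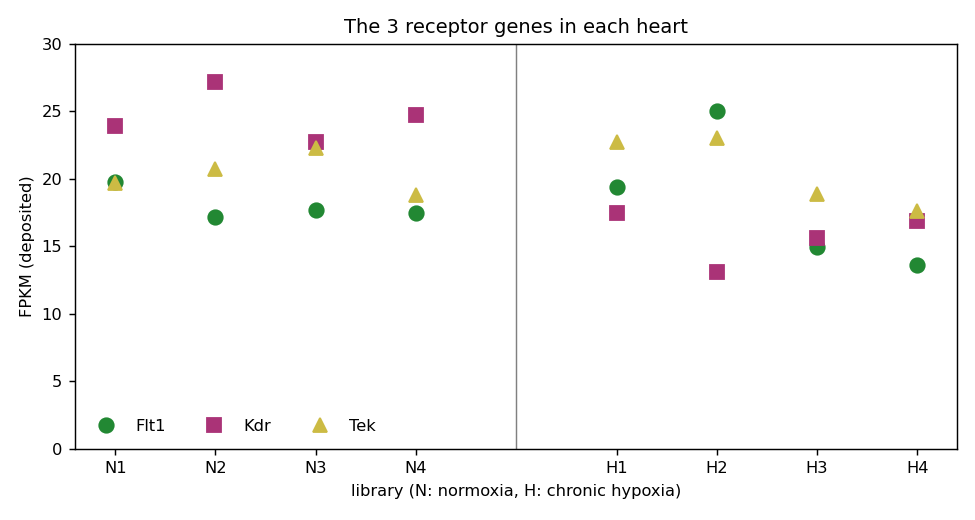
Deposited FPKM (y axis, from 0) of Flt1 (green circles), Kdr (purple squares) and Tek (yellow triangles) in each normoxia (N) and chronic hypoxia (H) library. Kdr is the highest of the 3 in all normoxia libraries and lies below Tek in all hypoxia libraries.

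Ratios of 2 genes within a library do not depend on how libraries are scaled, and all 6 pairs were compared. The Kdr/Tek ratio of FPKM was 1.21, 1.31, 1.02 and 1.32 in normoxia libraries 1 to 4 and 0.769, 0.571, 0.829 and 0.958 in hypoxia libraries 1 to 4. Its groups did not overlap, with a log2 difference of −0.65 (n = 4 each, two-sided exact permutation p = 0.0286, the smallest this design can give, adjusted over 6 pairs 0.114). The Kdr/Flt1 ratio was 1.21 to 1.58 in normoxia and 0.902, 0.525, 1.05 and 1.24 in hypoxia libraries 1 to 4. Its log2 difference was −0.63, with 3 of 4 hypoxic hearts below all normoxic ones (exact permutation p = 0.0571, adjusted 0.114), and without hypoxia library 2 it was −0.37.

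Vegfa had lower mean ratios to Flt1 and Tek in hypoxia and a similar mean ratio to Kdr, and none of these differences passed. The Vegfa/Flt1 ratio was 8.04 to 8.83 in normoxia and 5.11, 3.24, 8.06 and 7.92 in hypoxia libraries 1 to 4, a log2 difference of −0.54 carried mostly by libraries 1 and 2 (exact permutation p = 0.0857, adjusted 0.129). Without hypoxia library 2 it was −0.27. The Vegfa/Tek ratio was 6.38 to 8.08 in normoxia and 4.35, 3.53, 6.39 and 6.12 in hypoxia, a log2 difference of −0.57 (exact permutation p = 0.0571, adjusted 0.114). Vegfa/Kdr ratios ran from 5.58 to 6.66 in normoxic hearts and from 5.66 to 7.70 in hypoxic ones, a log2 difference of 0.08 (exact permutation p = 0.514, adjusted 0.617). Single hypoxic and normoxic hearts differed in Vegfa/Kdr by −0.23 to 0.46 on the log2 scale, on both sides of 0. The Flt1/Tek ratio differed by −0.03 (exact permutation p = 0.857, adjusted 0.857), with single-heart differences of −0.38 to 0.45. None of the 6 pairs passed an adjusted p of 0.05, which the design allows only if at least 4 of them reach the smallest exact p together, so this says little about the size of the differences. The groups of Vegfa/Tek and Vegfa/Flt1 overlapped by 0.000553 and 0.00429 on the log2 scale. On log2(FPKM + 1), and with the trend of each library with gene-model length subtracted, those 2 pairs and Kdr/Tek all reached the smallest exact p (exact permutation p = 0.0286, adjusted 0.0571).

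**Figure D3:**
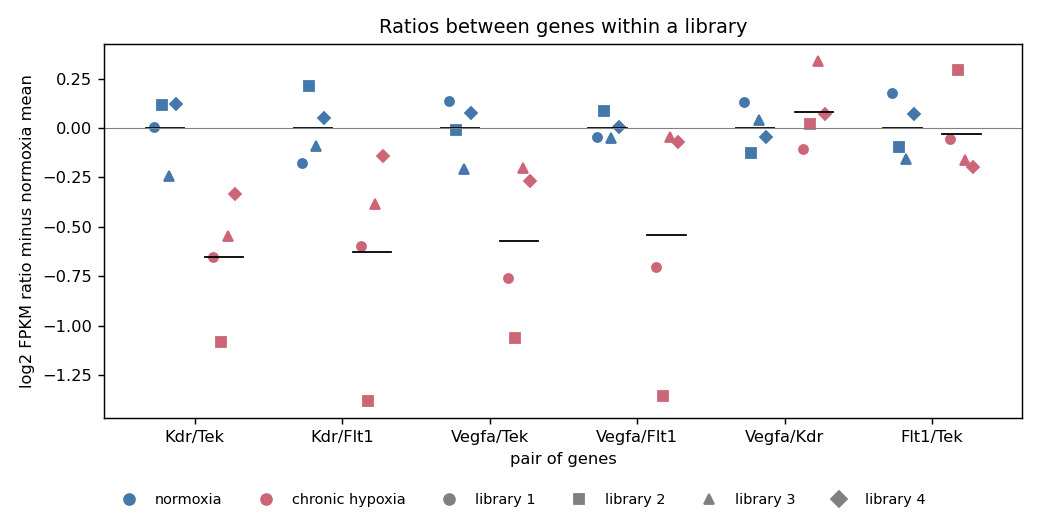
Log2 ratio of FPKM for each of 6 pairs of genes (x axis), centred on the normoxia mean (y axis), for normoxia (blue) and chronic hypoxia (red), with marker shape for the library number and a bar for each group mean. Kdr/Tek is below normoxia in all 4 hypoxic hearts, and the means of Vegfa/Kdr and Flt1/Tek lie close to 0.

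Gene-model length moved with the group difference, and the 4 genes have long models: 3546 bp for Vegfa, 4559 bp for Tek, 6334 bp for Kdr and 6968 bp for Flt1. With tested genes divided into 10 equal bins by length, in the bin that holds Kdr and Flt1 (5214 bp and above) 37.1% of genes were called lower and 5.49% higher, with a median log2 fold change of −0.23. In the bin of Vegfa 20.3% were lower and 8.66% higher, with a median of −0.11. In that of Tek 24.9% were lower and 8.16% higher, with a median of −0.14. Within its bin Kdr had a higher log2 fold change than 23.6% of genes and Flt1 a higher one than 85.8%. Vegfa exceeded 19.4% of the genes in its bin and Tek 79.9% of those in its own.

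With the length trend subtracted, the falls of Vegfa and Kdr did not pass, as given above. The log2 fold change of Flt1 was then 0.44 (edgeR adjusted p = 0.120) and that of Tek 0.33 (edgeR adjusted p = 0.0564), so none of the 4 genes passed in that fit, in which 27.0% of tested genes did. After the subtraction the log2 difference of Kdr/Flt1 was −0.65, from −0.63, and that of Kdr/Tek −0.58, from −0.65. The models of Kdr and Flt1 are of similar length, so the subtraction could hardly move their ratio, and it is no test of length. No RNA integrity values were used here, and the part of RNA integrity in these falls was not tested.

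**Figure D4:**
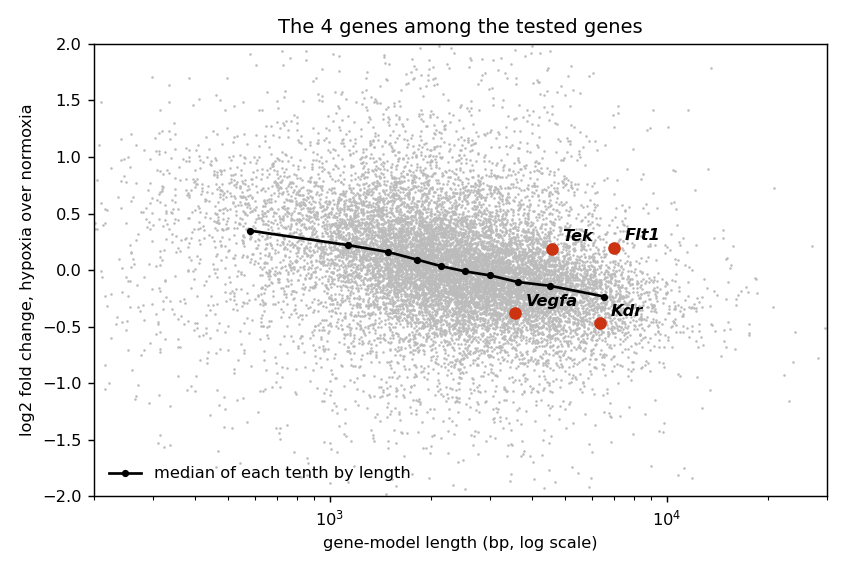
Log2 fold change of chronic hypoxia over normoxia (y axis) against gene-model length in bp (x axis, log scale) for the tested genes (grey), with 310 beyond the axes not drawn, and the median of each of 10 length bins (black line). Vegfa and Kdr lie below the line and Flt1 and Tek above it (red points).

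**Figure D5:**
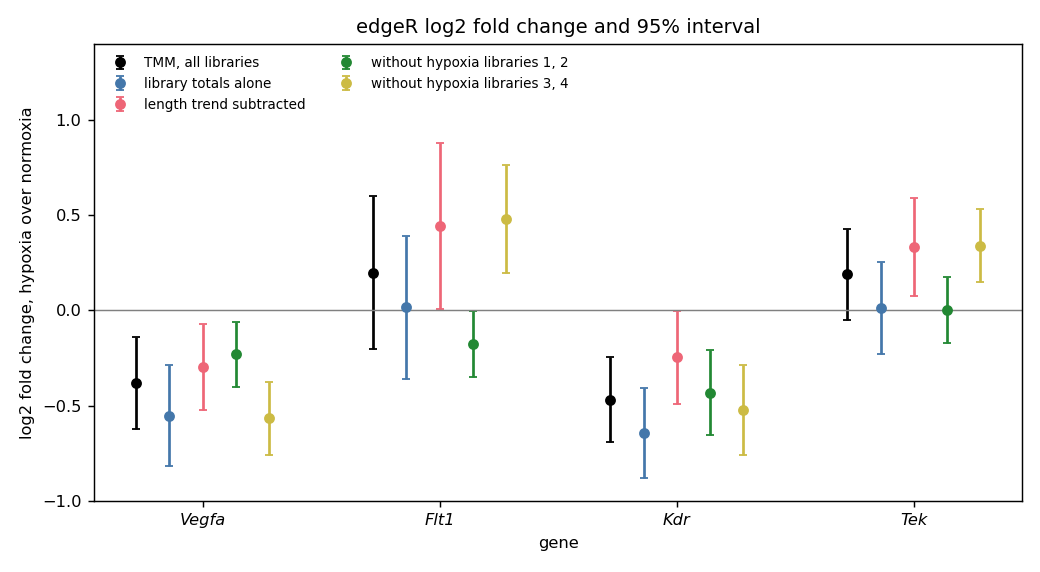
EdgeR log2 fold change of each gene (y axis) with its 95% interval in all libraries (black), with library totals alone (blue), with the length trend subtracted (red), and without hypoxia libraries 1 and 2 (green) or 3 and 4 (yellow). Vegfa and Kdr stay below 0 in all 5 fits, while Flt1 ranges from −0.18 to 0.48 and Tek from 0.00 to 0.34.

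Other genes were ranked by likeness to each of the 4, as Pearson's r of log2 CPM over the 8 libraries, which share the difference between groups. Among 12658 genes that averaged 1 CPM or more, Kdr ranked 579 in likeness to Vegfa, and Tek ranked 203 in likeness to Flt1. From the other side, Tek ranked 12482 in likeness to Vegfa, near the end of the list. The files give no symbols, so the closest gene to each is named by ID. Each was picked as the highest r among 12658 genes over 8 libraries, so a high r follows from the choice. Values of r above 0.95 were reached by 56, 8, 21 and 9 genes for Vegfa, Flt1, Kdr and Tek. ENSRNOG00000049063 was closest to Vegfa (r = 0.995, log2 fold change −0.45, edgeR adjusted p = 0.0773). Its level was low, with means of 2.43 CPM in normoxia and 1.79 CPM in hypoxia. ENSRNOG00000020704 was closest to Kdr (r = 0.997) and fell by 0.46 on the log2 scale (SE 0.13, edgeR adjusted p = 0.0252). This gene was also low, with means of 4.27 CPM in normoxia and 3.10 CPM in hypoxia. ENSRNOG00000022523 was closest to Flt1 (r = 0.981, log2 fold change 0.72, edgeR adjusted p = 0.196) and ENSRNOG00000024411 to Tek (r = 0.988, log2 fold change 0.26, edgeR adjusted p = 0.187). The gene closest to Flt1 spread widely in hypoxia (mean 59.7, SD 45.9 CPM).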

How the data were processed

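The authors deposited read counts per gene, whole numbers that were not normalized, and FPKM values (counts divided by library total and gene length) for each of 8 libraries of rat heart. Trizol was used for extraction of total RNA and a NEBNext Ultra kit for libraries, per the labels' protocols. In the list of tools per the submitters' processing notes, HISAT2 2.1.0, Bowtie2 2.2.3, HTSeq 0.6.0, bcl2fastq and genome rn6 are listed, without their roles. Annotation release, strand setting and handling of multi-mapping reads are not stated there. Soluble and membrane forms of Flt1 and splice forms of Vegfa are summed in such gene counts. Count divided by FPKM and library total gave 1 whole length per gene in 100% of values above 0 (relative tolerance 0.001), used as gene-model length.

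The files hold Ensembl IDs without symbols. The 4 symbols were paired with IDs when the genes were chosen, and the reference gene table (GRCr8) matched 0 of 21549 IDs. The 13 lists of pathway genes and cell type markers (108 symbols) therefore could not be tested beyond the 4 genes, and the endothelial and other cell markers of the tissue were not analysed here. The members and lists were chosen with earlier results of these data known.

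The fit used edgeR 4.0.16 in R 4.3.3 on all genes kept by filterByExpr (minimum count 10), with TMM scaling, the quasi-likelihood test with group as the only term and Benjamini-Hochberg adjustment over 14214 genes; adjusted p under 0.05 is described as passing. The script was tested on simulated data. SE came from the test statistic, and log2 CPM used a prior count of 2. Ratios used two-sided exact permutation tests over 70 assignments (scipy 1.17.1). Replicate numbers were not treated as pairs. Alternatives were other scalings, filters, DESeq2 1.42.0, limma 3.58.1 (voom, or log2 FPKM with a trend), a replicate block, left-out libraries and subtraction of a lowess length curve (span 0.3) of log2 CPM per library. Named genes were the 4 members and, for likeness, the gene with the highest r to each.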

Additional observations from a re-analysis of the deposited data

How the results depend on the processing

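The fall of Kdr kept its direction in all 24 alternative fits (log2 fold change −0.64 to −0.25) and its call in 23. That of Vegfa kept its direction in all 24 (−0.57 to −0.23) and its call in 20. All fits reuse the same 8 libraries, so they are no separate tests. The ends of the Vegfa range came without hypoxia libraries 3 and 4 and without 1 and 2, pairs parted by these same data. With the length trend subtracted, Vegfa was at −0.29 and Kdr at −0.25, neither past the threshold (edgeR adjusted p = 0.0557 and 0.118). With each library left out in turn, Vegfa ranged from −0.44 to −0.31, Kdr from −0.54 to −0.42, Flt1 from −0.03 to 0.30 and Tek from 0.10 to 0.25. Flt1, which was not called, changed sign without hypoxia replicate 2 (−0.0339), without hypoxia libraries 1 and 2 (−0.18), and in limma on log2(FPKM + 1) (−0.0198), log2(FPKM + 0.1) (−0.0226) and log2(FPKM + 1) without a filter (−0.0198). Without hypoxia libraries 3 and 4, Flt1 (0.48) and Tek (0.34) passed, which is no separate call, since these data parted the libraries. The cause of these changes was not tested.

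Calls over all genes stayed within 1.5 times of 4693 in all 24 fits (3315 to 4758 with 1 library left out, 1809 to 2554 higher and 1506 to 2310 lower). Their split was 2516 higher and 2177 lower under TMM, 1426 and 3870 under library totals alone, 1195 and 3704 on log2(FPKM + 1), 1195 and 3688 on log2(FPKM + 0.1), and 1108 and 3548 on log2(FPKM + 1) without a filter. A replicate block (pairing by replicate number) called 3841 genes, with Vegfa at −0.39 (edgeR adjusted p = 0.0486) and Kdr at −0.47 (edgeR adjusted p = 0.0204), but same-number correlations of −0.0847 to 0.0187 gave no sign that the numbers pair animals, and for 0 of 4 normoxic hearts was the same-numbered hypoxic heart the closest. For the ratios, subtraction of the length trend turned Vegfa/Kdr to −0.0471 and Flt1/Tek to 0.0674. With 1 library left out these differences ranged from −0.00410 to 0.144 and from −0.137 to 0.0316, and the other 4 pairs kept their sign in each alternative. The closest genes ranked 5, 17, 1 and 1 in likeness to Vegfa, Flt1, Kdr and Tek by Spearman's rho, and 3, 4, 1 and 4 by deviations from the group means. Alternatives for the gene lists were not run, for want of symbols. With 4 libraries per group no exact p can fall under 0.0286.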
